A study of Capra hircus with 3 samples.

Results

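T cells and cytotoxic lymphocytes in the lactating goat mammary gland were followed through 10 marker genes, chosen by name: CD3D, CD3E, CD3G, CD2, CD4, CD8A, CD8B, LCK, ZAP70 and NKG7. Deposited values were matched by NCBI gene ID for 9 of them, out of 13023 protein-coding genes with values, and ZAP70 was not analysed here. The tissue came from Laoshan dairy goats (Capra hircus), healthy adults of a single age and parity, with no treatment beyond Xylazine Hydrochloride anaesthesia when tissue was taken by surgery. RNA of 5 goats was mixed in equal parts at each stage, which gave 1 E library (early lactation, day 10 after parturition), 1 P library (peak, day 90) and 1 L library (late, day 210). The paper describes 5 goats in all, with tissue taken at every stage and the goats released after recovery. The libraries thus share animals, and earlier surgery on the same goats cannot be told apart from stage. Pooling hides the spread between goats, so no difference below has a replicate check, an error or a p-value, and the share of any single goat in a value cannot be told. Levels are FPKM, fragment numbers divided by transcript length and by the mapped reads of the library, so that genes of different length can be compared, and the reads behind each value are unknown.

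The labels of the later stages carry a doubt. Ratios between peak and late lactation in the supplementary tables of the paper tended to run opposite to the deposited columns labelled peak and late. The libraries are therefore called E-labelled, P-labelled and L-labelled, and every direction that involves the P-labelled or L-labelled library would carry the other stage name if those columns were exchanged.

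T cells carry an antigen receptor that signals through the CD3 chains. The coreceptors CD4 and CD8 bind class II and class I molecules of the major histocompatibility complex and bring the kinase LCK to the receptor, where it phosphorylates the CD3 chains and the kinase ZAP70 docks. In ruminants, lymphocytes lie within and beneath the mammary epithelium, with CD8 cells prominent in the epithelium, and pass into milk. In whole tissue, fewer cells of a type and less RNA per cell cannot be told apart.

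The 8 markers with values above 0 in every library had their highest level in the P-labelled library and their lowest in the L-labelled one. Between these extremes the levels lay 3.70 to 10.5 times apart. Relative to the E-labelled library, 7 of the 8 were at least 2-fold higher in the P-labelled library and 7 of the 8 at least 2-fold lower in the L-labelled library.

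The genes of the CD3 chains lie side by side on scaffold NW_005100821.1, in an assembly that the deposited coordinates do not name. CD3D, from 12183534 to 12187872, had 2.68 FPKM in the E-labelled, 10.4 FPKM in the P-labelled and 1.23 FPKM in the L-labelled library. It was thus 3.86 times higher in the P-labelled than in the E-labelled library, the largest such ratio of the 8 markers, and 8.40 times lower in the L-labelled than in the P-labelled library. CD3G, from 12189414 to 12202061, had 4.91, 13.8 and 1.76 FPKM in the same order of libraries. Its level in the P-labelled library was 2.81 times that in the E-labelled and 7.84 times that in the L-labelled library, so both chains had the same order of libraries.

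CD3E, the remaining chain, did not follow that order. It was listed at 0 FPKM in the E-labelled and P-labelled libraries and at 1.43 FPKM in the L-labelled library. The entry shares a merged locus, from 12078305 to 12179335, with MPZL2 and MPZL3, which encode adhesion proteins of the immunoglobulin superfamily. MPZL2 had 7.13, 20.7 and 0.337 FPKM, so its levels were highest in the libraries where CD3E was listed at 0, while MPZL3 had 6.69, 7.0 and 6.79 FPKM. How reads of this locus were divided among its entries was not tested. T cells assemble the CD3E chain together with those of CD3D and CD3G, so both zeros are read as listed values and no fold is given for CD3E.

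**Figure D1:**
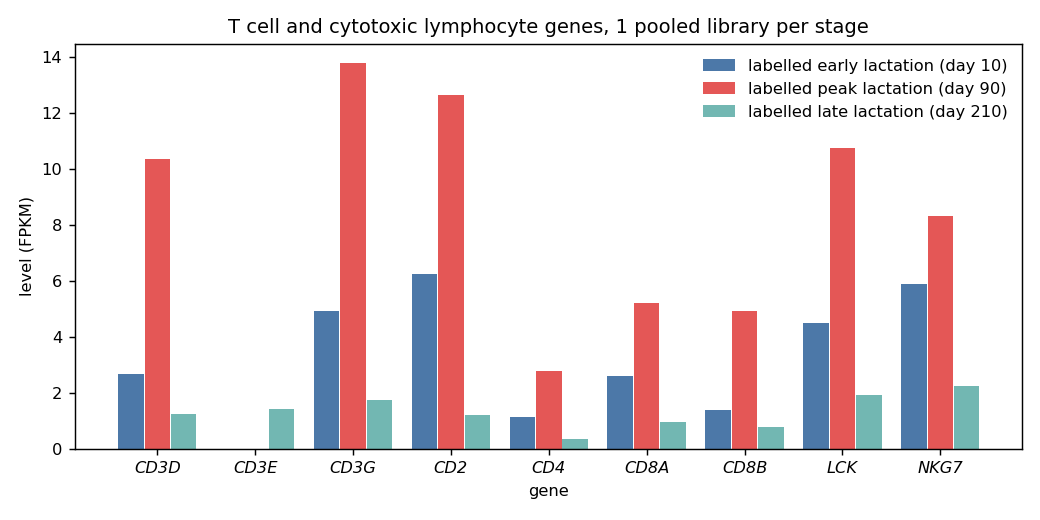
Level of each marker in FPKM (vertical axis, from 0) in the single pooled library of each stage, with stage names as labelled. For the markers other than CD3E, the bar of the P-labelled library is the tallest and that of the L-labelled library the shortest; CD3E has a bar only in the L-labelled library, at 1.43 FPKM.

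CD2, an adhesion receptor of T and natural killer cells, lies on scaffold NW_005100636.1 from 3661851 to 3676862. It had 6.25 FPKM in the E-labelled, 12.6 FPKM in the P-labelled and 1.21 FPKM in the L-labelled library. With a level 10.5 times lower in the L-labelled than in the P-labelled library, CD2 had the widest range of the 8 markers. Most of that range lay on the L-labelled side, 5.17 times below the E-labelled library, whereas the P-labelled library was 2.02 times above it, just past the 2-fold limit.

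In each library the coreceptor genes had lower levels than CD3D and CD3G. CD4, which marks helper T cells, lies on scaffold NW_005100676.1 from 499614 to 522559 and had 1.14, 2.78 and 0.353 FPKM in the E-, P- and L-labelled libraries. CD8A, the chain found in every CD8 molecule, lies on scaffold NW_005100774.1 from 14404547 to 14416968 and had 2.59, 5.22 and 0.952 FPKM. CD8B, the partner chain in the heterodimer of conventional cytotoxic T cells, lies on the same scaffold from 14340186 to 14355487 and had 1.39, 4.93 and 0.793 FPKM. Each coreceptor gene was thus highest in the P-labelled library and below 1 FPKM in the L-labelled library.

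CD4 was the lowest of the 8 markers in each library. CD8A had 2.28 times the FPKM of CD4 in the E-labelled, 1.88 times in the P-labelled and 2.70 times in the L-labelled library. The chains of CD8 were less even in the E-labelled library, where CD8A had 1.86 times the FPKM of CD8B, than in the P-labelled library, where the ratio was 1.06, or the L-labelled library, at 1.20. CD8B was accordingly 3.54 times and CD8A 2.02 times higher in the P-labelled than in the E-labelled library. CD8B was the marker that missed the 2-fold limit between the E- and L-labelled libraries, at 1.76 times lower in the latter.

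LCK, the kinase of the coreceptors, lies on scaffold NW_005100623.1 from 23322941 to 23343161 and had 4.51, 10.8 and 1.93 FPKM in the E-, P- and L-labelled libraries. It was 2.39 times higher in the P-labelled and 2.33 times lower in the L-labelled library than in the E-labelled one, so its steps on both sides were of nearly equal size. NKG7, a protein of the cytotoxic granules of natural killer cells and CD8 T cells, lies on scaffold NW_005101703.1 from 35538 to 37162 and had 5.90, 8.30 and 2.24 FPKM. NKG7 had the smallest range, with 1.41 times the E-labelled level in the P-labelled library and 2.63 times less in the L-labelled one.

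The order of the levels differed between libraries. In the E-labelled library CD2 and NKG7 led, with CD3G and LCK next. In the P-labelled library CD3G, CD2, LCK and CD3D stood above NKG7, and in the L-labelled library NKG7 led and LCK followed. The FPKM of NKG7 was 2.20 times that of CD3D in the E-labelled, 0.802 times in the P-labelled and 1.82 times in the L-labelled library. Without replicates, neighbours in this order cannot be separated from the spread. Against all protein-coding genes the markers were of modest abundance: their median percentile by FPKM was 31.2 in the E-labelled, 59.4 in the P-labelled and 14.5 in the L-labelled library, over the 8 markers.

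Across the transcriptome, 10.5% of 12937 protein-coding genes above 0 in both libraries were at least 2-fold higher in the P-labelled than in the E-labelled library, against 7 of 8 markers. At least 2-fold lower in the L-labelled than in the E-labelled library were 5.44% of 12777 genes, against 7 of 8 markers. Between the P- and L-labelled libraries, 16.2% of 12807 genes were at least 2-fold lower in the latter, against 8 of 8 markers, and 7 of the 8 markers were at least 4-fold lower. Both steps together, at least 2-fold up from the E- to the P-labelled library and at least 2-fold down from the E- to the L-labelled library, were found in 2.30% of 12764 genes and in 6 of 8 markers: CD3D, CD3G, CD2, CD4, CD8A and LCK. Among genes whose mean FPKM lay within the range of the markers, 1.42 to 6.81, the shares of the single steps were 13.1%, 6.62% and 22.1%.

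The median log2 ratio of the 8 markers was 1.27 for the P-labelled over the E-labelled library, -1.42 for L over E and -2.80 for L over P, where the medians over all protein-coding genes were 0.01, -0.03 and -0.02. These comparisons share libraries, and the last follows from the other pair. CD3D had a higher ratio of P over E than 98.1% of protein-coding genes, and CD8B than 97.6%. At the other end NKG7 exceeded 76.4%. For L over E, 0.775% of genes had a lower ratio than CD2 and 7.74% a lower ratio than CD8B, and for L over P the share was between 1.16% for CD2 and 6.07% for NKG7.

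**Figure D2:**
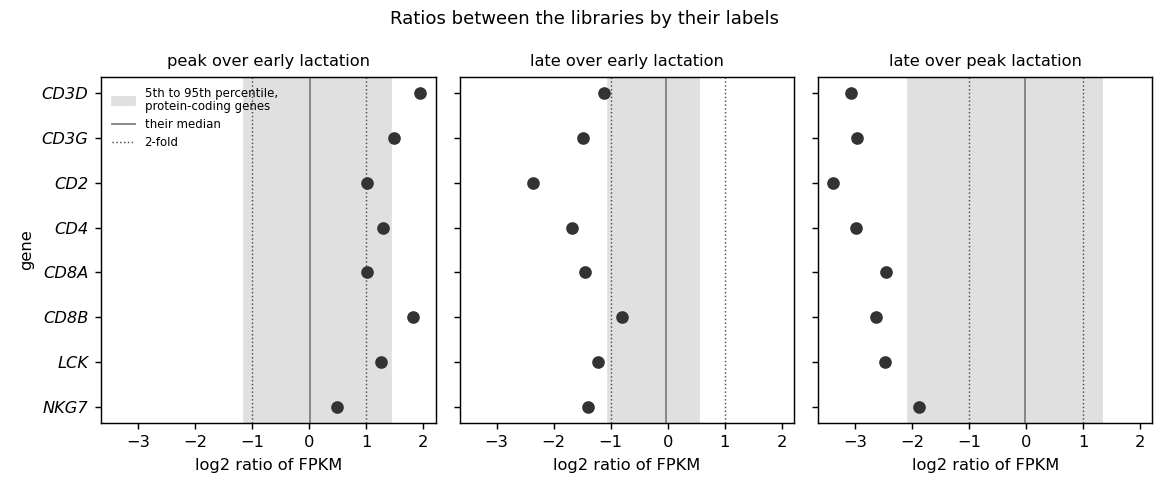
Log2 ratio of FPKM between libraries (horizontal axis) for the 8 markers above 0 in every library, by stage as labelled; the grey band spans the 5th to 95th percentile of protein-coding genes and dotted lines mark 2-fold. CD3D, CD3G and CD8B lie right of the band for peak over early, all but CD8B lie left of it for late over early, and all but NKG7 lie left of it for late over peak.

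Genes that act downstream of the T cell receptor or beside it as costimulators had values for 22 of 23 listed. At least 2-fold higher in the P-labelled than in the E-labelled library were 10, and 1 was at least 2-fold lower, against 10.5% and 6.69% of all protein-coding genes. At least 2-fold lower in the L-labelled library were 11 relative to E and 17 relative to P, against 5.44% and 16.2% of all genes. None was at least 2-fold higher there in either comparison, against 1.64% and 8.57% of all genes. The median log2 ratios were 0.97 for P over E, -0.98 for L over E and -2.09 for L over P. CD247, the zeta chain that completes the receptor complex, had 4.99, 14.7 and 3.20 FPKM in the E-, P- and L-labelled libraries. CD27, a costimulatory receptor, had 4.05, 15.5 and 2.18 FPKM, and SIT1, an adaptor that interacts with the receptor, had 1.65, 6.07 and 0.782 FPKM. These partners thus had the order of CD3D and CD3G. CD7, a surface receptor of T and natural killer cells, was the gene at least 2-fold lower in the P-labelled than in the E-labelled library, with 8.88, 3.48 and 2.57 FPKM. Narrower ranges were found for PLCG1, a phospholipase of many receptors, with 15.3, 18.6 and 13.1 FPKM. The same held for LCP2, an adaptor also found in myeloid cells and platelets, with 12.8, 11.8 and 15.6 FPKM. The kinase gene FYN had 6.34, 13.0 and 4.09 FPKM, in the order of CD3D and CD3G.

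Cytotoxic granule and natural killer cell genes had values for 17 of 25 listed. At least 2-fold higher in the P-labelled than in the E-labelled library were 5, and at least 2-fold lower in the L-labelled library were 10 relative to E and 12 relative to P, with none in the opposite directions. The shares over all protein-coding genes were 10.5%, 5.44% and 16.2% in the same order. The median log2 ratios were 0.71, -1.09 and -1.73 for P over E, L over E and L over P. CCL5, a chemokine made by activated T and natural killer cells, had 10.8, 32.8 and 2.0 FPKM, the widest range of the named genes in this list. CTSW, a protease of cytotoxic lymphocytes, had 10.7, 22.3 and 4.36 FPKM, and GZMA, a granule protease, had 1.45, 3.20 and 0.592 FPKM. NCR1, an activating receptor of natural killer cells, had 4.03, 6.80 and 1.80 FPKM. Of these, NCR1 was less than 2-fold apart between the E- and P-labelled libraries, as was NKG7. SRGN, a granule proteoglycan that many blood cells share, had 23.3, 36.4 and 19.0 FPKM, within 2-fold throughout.

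Transcription factors of T and cytotoxic cells had values for 14 of 15 listed, with median log2 ratios of 0.68, -0.73 and -1.96. At least 2-fold higher in the P-labelled than in the E-labelled library were 6, and at least 2-fold lower in the L-labelled library were 7 relative to E and 8 relative to P, beside 10.5%, 5.44% and 16.2% of all genes. IKZF1, a regulator of lymphocyte development, had 5.38, 13.0 and 2.44 FPKM, and TBX21, which drives type 1 and cytotoxic programmes, had 1.08, 2.56 and 0.525 FPKM. ETS1, a factor of lymphocytes and endothelium, had 17.2, 26.1 and 15.5 FPKM, the same order within 2-fold. GATA3, which mammary luminal epithelium also expresses, had 15.0, 10.4 and 14.6 FPKM, and on the deposited scale it was lowest in the P-labelled library.

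Cytokine receptors and homing molecules had values for 16 of 19 listed, with median log2 ratios of 1.07, -0.85 and -2.19. At least 2-fold higher in the P-labelled than in the E-labelled library were 8, and at least 2-fold lower in the L-labelled library were 7 relative to E and 11 relative to P, again beside 10.5%, 5.44% and 16.2% of all genes. IL7R, the receptor for the T cell survival cytokine interleukin 7, had 6.46, 14.3 and 2.0 FPKM. CXCR6, a chemokine receptor of tissue T cells, had 3.04, 7.98 and 1.24 FPKM, and ITGAE, the integrin chain that holds lymphocytes to E-cadherin of epithelium, had 2.66, 5.27 and 1.07 FPKM. S1PR1, also abundant in endothelium, had 11.7, 10.2 and 9.38 FPKM, without the higher level in the P-labelled library. When the libraries were scaled to the sum over protein-coding genes, which had a log2 ratio of -0.79 for P over E, the P-labelled library was above the E-labelled one for LCP2, GATA3 and S1PR1 too.

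Inhibitory and costimulatory receptors of activated T cells had values for 9 of 10 listed, with median log2 ratios of 1.55, -0.66 and -2.83. At least 2-fold higher in the P-labelled than in the E-labelled library were 5, and at least 2-fold lower in the L-labelled library were 4 relative to E and 7 relative to P, with the same shares of all genes as above. TNFRSF18, a costimulatory receptor of regulatory and activated T cells, had 1.52, 5.06 and 0.384 FPKM, and ICOS, another costimulatory receptor, had 1.34, 3.91 and 0.454 FPKM. CTLA4, an inhibitory receptor, had 2.71, 4.93 and 1.72 FPKM and was within 2-fold of the E-labelled library in both others. TNFRSF4 went the other way, with 1.44, 1.06 and 1.71 FPKM, and BTLA, with 0.368, 2.89 and 0.408 FPKM, was lowest in the E-labelled library.

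Lists for other leukocytes also had their highest summed FPKM in the P-labelled library. The pan-leukocyte genes, of which 8 of 10 had values, summed to 91.9 FPKM in the E-labelled, 188 FPKM in the P-labelled and 46.0 FPKM in the L-labelled library, with no gene at 0. Their median log2 ratios were 1.03, -1.02 and -1.97. All 8 were at least 2-fold lower in the L- than in the P-labelled library, beside 16.2% of all protein-coding genes. PTPRC, the CD45 phosphatase of all nucleated blood cells, had 17.6, 39.9 and 8.08 FPKM. Macrophage and monocyte markers, 10 of 11 with values, summed to 198, 328 and 106 FPKM, with median log2 ratios of 0.63, -0.90 and -1.45. The B cell and plasma cell markers, 10 of 11 with values, summed to 302, 524 and 365 FPKM, sums carried by the immunoglobulin joining chain JCHAIN with 266, 429 and 337 FPKM. CD79B, a chain of the B cell receptor, had 1.08, 7.22 and 0.308 FPKM. Neutrophil markers, 4 of 5 with values, summed to 13.0, 24.9 and 5.30 FPKM and had median log2 ratios of 0.41, -0.43 and -0.54. These medians cover unlike genes. S100A9 had 4.84, 13.8 and 1.84 FPKM, in the order of the T cell markers, while CSF3R, with 2.47, 2.44 and 2.70 FPKM, and CXCR2, with 1.02, 1.11 and 0.762 FPKM, stayed within 2-fold. S100A8 had 4.65, 7.57 and 0 FPKM, the single 0 in these lists. It has no ratio with the L-labelled library, so the neutrophil medians of L over E and L over P rest on 3 genes and leave out its fall. The summed FPKM of the markers themselves was 29.4, 68.8 and 11.9. The part of other leukocytes in the results for genes they share with T cells was not tested.

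The tissue label held in each library, with abundant luminal epithelial genes such as KRT8, a keratin of secretory epithelium, at 126, 196 and 154 FPKM. On the deposited scale the median log2 ratios of P over E were -0.09 for luminal epithelium, -0.20 for basal cells, -0.20 for endothelium and -0.66 for fibroblasts, and those of L over E were -0.03, 0.01, 0.35 and -0.30. For L over P they were -0.12, 0.03, 0.54 and 0.34. Scaled to the protein-coding sum, the medians of P over E became 0.71, 0.60, 0.60 and 0.13 and those of L over P -0.73, -0.58, -0.07 and -0.27, so their direction depends on the scale, which that of the marker medians did not. None of these 23 genes was at least 2-fold apart between the E- and L-labelled libraries, beside 1.64% of all genes higher and 5.44% lower. Between the E- and P-labelled libraries 5 were, beside 10.5% of all genes higher and 6.69% lower. Lower in the P-labelled library were ELF5, a regulator of the secretory epithelium, with 879, 244 and 875 FPKM, and OXTR, the oxytocin receptor, with 3.83, 1.14 and 5.43 FPKM. The collagen genes COL1A2, with 138, 65.8 and 106 FPKM, and COL3A1, with 255, 123 and 220 FPKM, were lower there too. PDGFRA, a growth factor receptor of fibroblasts, was higher there, with 13.7, 28.0 and 11.3 FPKM.

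**Figure D3:**
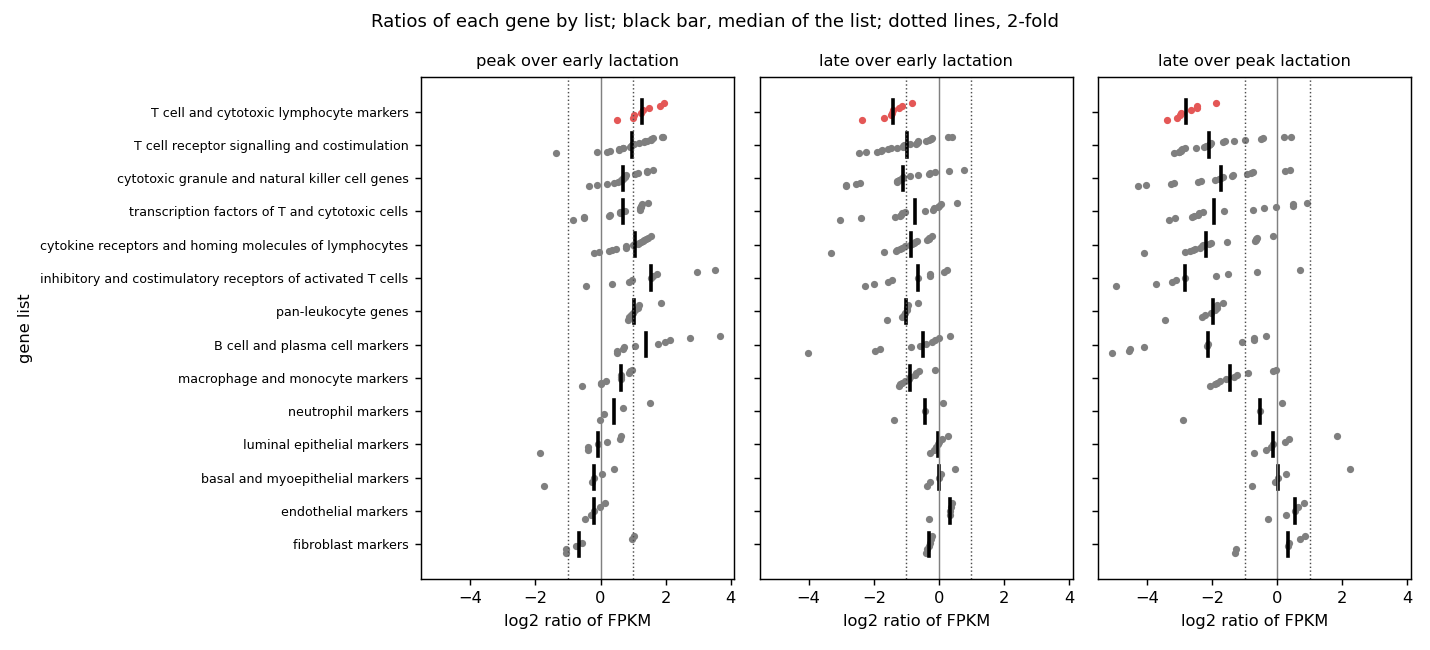
Log2 ratio of FPKM between libraries, by stage as labelled, for each gene (points) of the markers in red and of the 13 other lists in grey, with the median of each list as a black bar. Medians of the markers and of the T cell, cytotoxic, pan-leukocyte and B cell lists lie between 0.68 and 1.55 for peak over early and between -2.83 and -1.73 for late over peak. Those of macrophages (0.63 and -1.45) and neutrophils (0.41 and -0.54) are nearer to 0. The neutrophil median for late over peak rests on 3 genes and leaves out S100A8, which is listed at 0 in the L-labelled library. Of those 3, S100A9 lies far from the median, at -2.90. The medians of the epithelial, basal, endothelial and fibroblast lists lie between -0.66 and 0.54.

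Set against PTPRC in the same library, the markers varied less between stages. The 8 markers had 6.44% to 35.5% of the PTPRC level in the E-labelled library with a median of 20.4%, 6.97% to 34.6% with a median of 23.4% in the P-labelled library, and 4.36% to 27.7% with a median of 15.1% in the L-labelled library. On this scale the count of markers at least 2-fold apart was 0 for P over E, 1 for L over E and 1 for L over P. That marker was CD2 in both comparisons with the L-labelled library, at 35.5%, 31.7% and 15.0% of PTPRC. LCK was the steadiest, at 25.6%, 27.0% and 23.9%. CD3D had 15.2%, 26.0% and 15.3%, and CD8B had 7.90%, 12.4% and 9.82%, both highest in the P-labelled library. NKG7 went the other way, with 33.5%, 20.8% and 27.7%. Most of the distance between libraries in the markers was thus shared with PTPRC. PTPRC is 1 gene, which T cells express too, and no other reference gene was tried. Its log2 ratio of L over P was -2.30, where the pan-leukocyte genes ran from -3.46 (CD37) to -1.66 (HCLS1). Counts on this scale therefore hold for PTPRC alone and would depend on the reference gene.

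**Figure D4:**
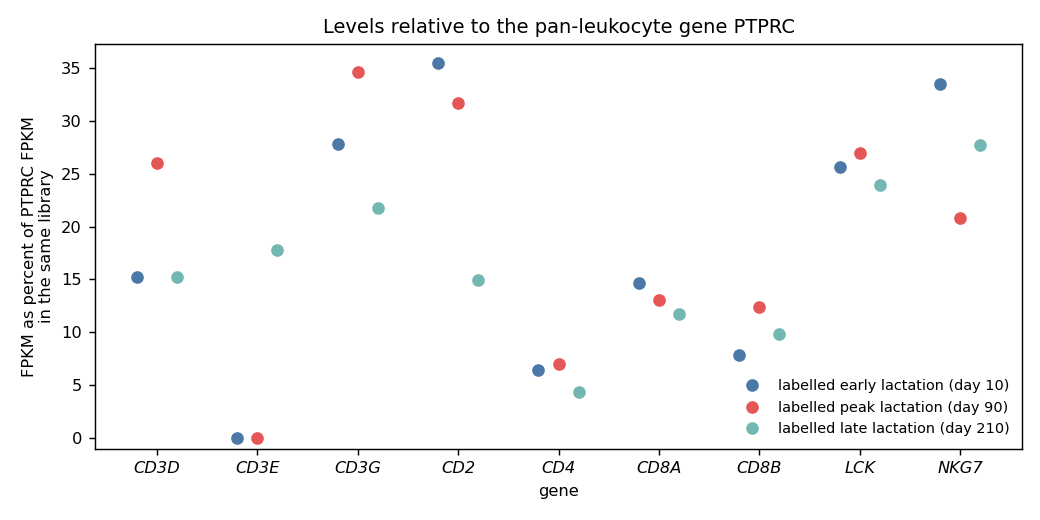
FPKM of each marker as a percent of the FPKM of PTPRC in the same library (vertical axis), 1 point per library. LCK and CD8A stay within a narrow band, CD2 is lowest in the L-labelled library at 15.0%, and NKG7 is lowest in the P-labelled library at 20.8%; CD3E is listed at 0 in the E- and P-labelled libraries.

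Among 6936 protein-coding genes outside the lists with at least 5 FPKM in every library, the pattern nearest to the median of the markers was that of CD44, a hyaluronan receptor of activated lymphocytes and many other cells. It had 14.2, 34.9 and 6.06 FPKM, at a distance of 0.20 in the plane of the log2 ratios P over E and L over E. CHI3L1, JUNB, LOC102178586 and TSPO came next, at distances of 0.26 to 0.34, and CD44 was the single candidate within 0.25. The markers themselves had at most 2.24 FPKM in the L-labelled library, so the limit of 5 FPKM left out genes at their level. With 3 libraries such likeness rests on a pair of ratios.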

How the data were processed

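Mammary RNA of the same 5 goats was pooled into 1 library per stage. After trimming, the authors mapped reads with TopHat2 2.0.9 and assembled transcripts with Cufflinks 2.1.1 (versions from the submitters' processing notes), then merged and quantified them, and deposited FPKM of 50041 loci, with 1 column for each library. Between 40.3% and 46.1% of values per column have a seventh significant digit, which is 5 in 95.7% to 99.3% of them, as a mean of a pair of 6-digit values would give, and whether values were averaged is not stated in the sources used here. The paper names the goat genome used for mapping and an ARS1 assembly, but the deposited loci name no build and lie on scaffolds, whereas the ARS1.2 gene table places the markers on numbered chromosomes, so the build of the coordinates was not settled.

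Rows were matched to symbols by NCBI gene ID through the ARS1.2 gene table and summed per ID. Each marker had 1 row. No genome or sequence was used. Ratios were taken between FPKM above 0, a gene counted as apart at 2-fold or more, and no test was run, since each stage has 1 library. Protein-coding genes were the background. The markers and lists were chosen with earlier results of these data known. Named from each further list were the 3 genes of highest mean FPKM and up to 4 per comparison with the largest ratios of at least 2-fold at 1 FPKM or more in both libraries, of which the text gives a selection, and not every gene the rule names is reported here. CST7, RAB27A, NCR3, TNFRSF4 and BTLA were named outside this rule, as genes of their lists without the order of the markers. Genes of similar pattern were the 5 nearest by Euclidean distance. Fold counting was tested on simulated data, where all 200 changed genes were found with 0 false calls. This covers the counting step alone, and the rate of false calls in the deposited libraries was not tested. Alternatives were fold limits of 1.5 and 4, pseudocounts of 0.1 and 1, a filter at 1 FPKM, other scalings, the highest locus per gene and exchanged P and L columns. Python 3.11.15, numpy 2.4.6, pandas 2.3.3 and matplotlib 3.10.9 were used.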

Additional observations from a re-analysis of the deposited data

How the results depend on the processing

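No paired analysis was possible because there is a single library at every stage, and no replicate could be left out for the same reason. The depth behind each FPKM is unknown, several markers lie under 1 FPKM in the L-labelled library, and no limit on a value of 0 can be given. At a fold of at least 4, 0 markers were apart for P over E and 1 for L over E, and with a pseudocount of 1 there were 4 and 4, 1 of the latter being CD3E in the opposite direction. These settings call fewer genes by construction. With at least 1 FPKM in both libraries 5 of 5 remaining markers were apart for L over P. Divided by PTPRC, the counts were 0, 1 and 1 for P over E, L over E and L over P. A fold limit of 1.5, a pseudocount of 0.1, centring, the highest locus per gene and scaling to the protein-coding sum left each count within 1.5 times its value. Chosen after seeing the data were the limit on mean FPKM of the background, the inclusion of genes at 0 and the alternatives for list medians. With genes at 0 included, 10.9%, 6.74% and 17.4% of protein-coding genes made the steps to which 7, 7 and 8 of the 8 markers above 0 belong. Under that rule CD3E, at 0, 0 and 1.43 FPKM, would enter both comparisons with the L-labelled library, in the opposite direction.

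The median log2 ratio of the markers, in the order P over E, L over E and L over P, was 1.22, -1.36 and -2.49 with a pseudocount of 0.1, 0.91, -0.88 and -1.73 with a pseudocount of 1, 1.30, -1.41 and -2.84 when centred, 2.07, -1.24 and -3.41 when scaled to the protein-coding sum, which shifts every gene through log2 ratios of sums of -0.79, -0.18 and 0.61, and 0.10, -0.30 and -0.50 when divided by PTPRC. The filter at 1 FPKM gave -1.40 and -2.97 for the comparisons with L.

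Exchanging the P and L columns turned every direction: 7 markers were lower for P over E, 7 higher for L over E and 8 higher for L over P, with medians of -1.42, 1.27 and 2.80. For P over E the markers then had -1.12 (CD3D), -1.48 (CD3G), -2.37 (CD2), -1.69 (CD4), -1.44 (CD8A), -0.81 (CD8B), -1.22 (LCK) and -1.40 (NKG7). For L over E they had 1.95 (CD3D), 1.49 (CD3G), 1.02 (CD2), 1.29 (CD4), 1.01 (CD8A), 1.82 (CD8B), 1.25 (LCK) and 0.49 (NKG7). For L over P they had 3.07 (CD3D), 2.97 (CD3G), 3.39 (CD2), 2.98 (CD4), 2.46 (CD8A), 2.64 (CD8B), 2.48 (LCK) and 1.89 (NKG7).

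Division by PTPRC turned the sign of CD2, CD8A and NKG7 for P over E, to -0.16, -0.17 and -0.69, of CD3D and CD8B for L over E, to 0.0039 and 0.31, and of NKG7 for L over P, to 0.41. It also turned 27 list medians. For P over E these were receptor signalling (-0.20), cytotoxic genes (-0.47), transcription factors (-0.50), receptors and homing molecules (-0.11), pan-leukocyte genes (-0.15), macrophages (-0.54) and neutrophils (-0.77). For L over E they were receptor signalling (0.14), cytotoxic genes (0.034), transcription factors (0.39), receptors and homing molecules (0.28), receptors of activated T cells (0.47), pan-leukocyte genes (0.11), B cells (0.64), macrophages (0.23), neutrophils (0.70), luminal epithelium (1.10) and fibroblasts (0.83). For L over P they were receptor signalling (0.21), cytotoxic genes (0.58), transcription factors (0.34), receptors and homing molecules (0.11), pan-leukocyte genes (0.33), B cells (0.17), macrophages (0.85), neutrophils (1.76) and luminal epithelium (2.19). Scaling to the protein-coding sum turned 8 medians, all of structural lists, and centring turned 1, that of basal cells for L over P. A pseudocount of 1 turned none. Of the single marker ratios that did not cross from at least 2-fold to the opposite sign, 132 kept their side of the 2-fold limit, 25 lost it and 3 gained it. For ratios within 2-fold at first these counts disregard sign. Of the 3, 2 came from exchanging the P and L columns and had turned sign: NKG7 for P over E and CD8B for L over E. The 132 include the same pair of ratios divided by PTPRC, which also turned sign. The causes were not tested.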
